A study of Mus musculus with 6 samples.

Results

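Among 10 genes of phospholipid cleavage and eicosanoid synthesis, Pla2g4a and Plcb4 read lower in all Sox9-deficient crypt samples than in all wild type ones. For Plcb4 this held for 1 of its 5 probe sets. The 2 genes were chosen by their measured KO minus WT differences, which are among the lowest of all genes. The set was filled up by function with Plcb3, Plcg2, Ptgs1, Ptgs2, Ptges, Alox5ap, Ltc4s and Hpgds. Its members were found as the probe sets that the platform annotation gives to exactly 1 of these symbols. That gave 16 probe sets for 9 of the 10 genes, of 18193 genes so named on the array. Ptgs1 is not analysed here.

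Phospholipases cut membrane lipids and so release signals. Cytosolic phospholipase A2 frees arachidonic acid, which cyclooxygenases turn into prostaglandins, and which 5-lipoxygenase with its activating protein turns into leukotrienes. Phospholipases C cut phosphatidylinositol bisphosphate into inositol trisphosphate, which releases calcium, and diacylglycerol, which activates protein kinase C. In the intestine prostaglandins are known for protecting the epithelium after injury, and tuft cells, a rare chemosensory cell type, are known to carry several of these enzymes.

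The material was epithelium from jejunal crypts of 3-month-old C57BL/6 mice. It came from 3 mice deficient for Sox9, a transcription factor of the crypt base (KO 1 to KO 3), and from 3 wild type littermate controls (WT 1 to WT 3). The sources used here give neither the Sox9 allele nor any Cre driver, sex or litter of the single mice. Each mouse gave 1 single-colour Affymetrix array, and all values below are log2 GCRMA intensities, so that a difference of 1 is a doubling. GCRMA pulls dim signals down to a shared floor, and the median of an array lay between 2.91 and 2.99.

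Epithelial markers were bright on all arrays. All 11 crypt epithelium markers were above the filter described next, with a median difference of -0.09, and 0 of them passed the test. Of the 17 markers of mesenchyme, muscle and vessels only Vim was above it. One Sox9 probe set read 2.42 to 2.75 in KO and 5.84 to 7.61 in WT, another read 5.33 to 6.34 in KO and 2.68 to 6.23 in WT, and the remaining one stayed between 3.16 and 3.53 on all arrays. The sources used here do not say which of them lies in a deleted part.

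Probe sets whose 6-array mean reached 4 were tested with limma, KO minus WT, and p-values were adjusted over all 18108 of them. Of these, 2 (0.011%) passed the threshold of 0.05, and neither of these, each lower in KO, belongs to the set. The groups did not overlap for 9.12% of the probe sets tested: the KO arrays were all below the WT arrays for 4.03% and all above them for 5.09%. Of the 16 probe sets of the set, 6 were tested, 1 for each of Pla2g4a, Plcb4, Plcb3, Plcg2, Alox5ap and Ltc4s, and 10 lay under the filter. Because Pla2g4a and Plcb4 were chosen for their difference in this same contrast, their values are given as a description without a test.

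Pla2g4a encodes cytosolic phospholipase A2 alpha, the calcium-dependent enzyme that frees arachidonic acid for eicosanoid synthesis. Its only probe set read 5.34, 4.49 and 4.95 on KO 1, KO 2 and KO 3, against 8.47, 7.66 and 7.52 on WT 1, WT 2 and WT 3. The highest mutant value thus lay 2.18 below the lowest wild type value, a gap larger than the range within either group (0.84 in KO and 0.95 in WT). Pla2g4a averaged 4.93 ± 0.42 in KO crypts and 7.88 ± 0.51 in WT crypts (SD, n = 3 each), a difference of -2.96, or 7.76-fold lower in KO. It ranked 17 from the lowest difference among the 18108 probe sets tested.

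Plcb4 encodes a phospholipase C of the beta class, which G proteins of the Gq class activate. On its brightest probe set it read 3.43, 3.40 and 3.40 on KO 1, KO 2 and KO 3, against 6.34, 5.37 and 6.13 on WT 1, WT 2 and WT 3. All mutants lay within 0.04 of each other near the floor of the arrays, whereas the wild type mice spread over 0.96. Plcb4 averaged 3.41 ± 0.02 in KO crypts and 5.95 ± 0.51 in WT crypts (SD, n = 3 each), a difference of -2.54, or 5.81-fold lower in KO. Since the mutant values are near the floor, the size of this fold is not well measured. The probe set passed the filter only through the WT arrays.

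The other 4 Plcb4 probe sets did not show this. Each stayed between 2.27 and 2.65 on all 6 arrays with overlapping groups, and their differences ran from -0.02 to -0.01. The low signal of Plcb4 in KO thus rests on 1 of 5 probe sets, and which transcripts each probe set matches was not tested.

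**Figure D1:**
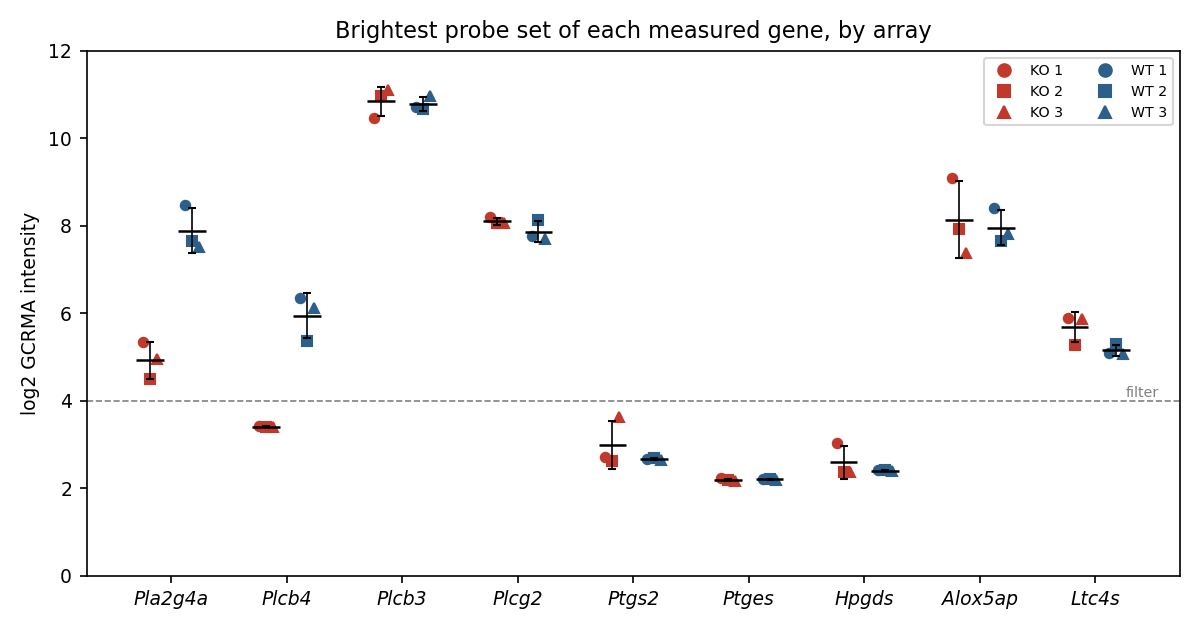
Log2 GCRMA intensity of the brightest probe set of each of the 9 measured genes on each array; KO arrays are red and WT arrays blue, horizontal bars are group means and error bars SD (n = 3), and the dashed line is the filter at 4. Only Pla2g4a and Plcb4, which were chosen for their difference, part the groups, while Ptgs2, Ptges and Hpgds lie under the filter in both.

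The stretches just upstream of the annotated starts of these genes are shown because Pla2g4a and Plcb4 were both low in KO, with that of Ltc4s, which was not, beside them for comparison. They are from RefSeq on GRCm38.p6, 250 bases each, written on the strand of the gene and ending 1 base before the start. Both strands were searched for the letters ACAAT and ACAAAG, which lie within sequences that SOX proteins are known to bind, and matches are in capitals.
Pla2g4a, chr1:149961291-149961540, minus strand: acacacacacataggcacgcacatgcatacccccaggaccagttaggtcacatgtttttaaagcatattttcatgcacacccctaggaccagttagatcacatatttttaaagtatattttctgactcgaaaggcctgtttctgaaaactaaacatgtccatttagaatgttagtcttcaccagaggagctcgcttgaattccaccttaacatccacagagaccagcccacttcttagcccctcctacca
Pla2g4a, second start, chr1:149922440-149922689, minus strand: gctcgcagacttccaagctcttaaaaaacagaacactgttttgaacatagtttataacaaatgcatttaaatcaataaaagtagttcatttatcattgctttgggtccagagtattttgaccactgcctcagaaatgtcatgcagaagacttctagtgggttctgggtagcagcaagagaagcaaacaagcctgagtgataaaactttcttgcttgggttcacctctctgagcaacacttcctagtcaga
Plcb4, chr2:135659297-135659546, plus strand: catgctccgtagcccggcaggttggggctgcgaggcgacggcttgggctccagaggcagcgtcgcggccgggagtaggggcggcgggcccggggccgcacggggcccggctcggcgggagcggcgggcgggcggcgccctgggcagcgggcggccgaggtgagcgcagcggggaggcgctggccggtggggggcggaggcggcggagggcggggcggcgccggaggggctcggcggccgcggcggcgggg
Plcb4, second start, chr2:135764588-135764837, plus strand: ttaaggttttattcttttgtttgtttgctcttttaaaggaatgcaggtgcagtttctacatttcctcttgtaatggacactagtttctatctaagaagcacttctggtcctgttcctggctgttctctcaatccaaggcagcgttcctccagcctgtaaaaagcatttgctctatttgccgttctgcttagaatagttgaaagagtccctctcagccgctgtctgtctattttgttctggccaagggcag
Ltc4s, chr11:50238533-50238782, minus strand: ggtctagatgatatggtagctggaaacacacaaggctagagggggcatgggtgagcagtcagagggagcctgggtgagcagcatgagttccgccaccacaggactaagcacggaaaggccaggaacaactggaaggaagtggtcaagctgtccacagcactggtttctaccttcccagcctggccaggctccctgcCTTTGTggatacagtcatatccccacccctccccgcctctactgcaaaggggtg

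Neither string of letters occurs in the 4 windows of Pla2g4a and Plcb4. Ltc4s holds ACAAAG once, on the reverse strand, starting 54 bases upstream of the start. Of the other windows in the promoter table, that of Plcb3 holds ACAAAG once and that of Ptges ACAAT once, while those of Plcg2, Ptgs1, Ptgs2 and Hpgds hold neither. Over 32851 windows of the same length, ACAAT occurs in 27.7%, ACAAAG in 16.5% and either of them in 38.8%, so the letters are common. The windows differ in base composition: the first Plcb4 window has 42 CG dinucleotides and 85.2% G and C, against a median of 6 CG dinucleotides over all windows, whereas the first Pla2g4a window has 3 CG dinucleotides and 43.2% G and C. These matches are a description of the letters only.

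For the other phospholipases C of the set the groups overlapped. Plcb3, the paralog of Plcb4 within the beta class, read 10.47, 10.98 and 11.09 on KO 1, KO 2 and KO 3, against 10.71, 10.68 and 10.96 on WT 1, WT 2 and WT 3. The means were 10.85 ± 0.33 in KO crypts and 10.78 ± 0.16 in WT crypts (SD, n = 3 each). The difference of 0.06 ± 0.22 (SE) did not pass (limma adjusted p = 0.999), and was -0.059 without KO 3 and 0.25 without KO 1.

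Plcg2 encodes a phospholipase C of the gamma class, which tyrosine kinases activate and which is best known from B cells. It read 8.20, 8.07 and 8.05 on KO 1, KO 2 and KO 3, against 7.76, 8.14 and 7.70 on WT 1, WT 2 and WT 3. WT 2 lay among the mutants, and the difference of 0.24 ± 0.19 (SE) did not pass (limma adjusted p = 0.999). It was 0.15 without WT 3 and 0.38 without WT 2.

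Of the prostaglandin enzymes of the set, those measured lay under the filter in both groups, at the floor on most arrays. Ptgs2, the inducible cyclooxygenase COX-2, read 2.71, 2.62 and 3.62 on KO 1, KO 2 and KO 3, against 2.67, 2.69 and 2.65 on WT 1, WT 2 and WT 3. Only KO 3 stood above the rest, and the other Ptgs2 probe set did not follow it, at 2.42 on KO 3 and 2.46 to 2.48 on the other 5 arrays. In the RefSeq table of GRCm38.p6, Ptgs2 is the next protein-coding gene beyond the start of Pla2g4a, with 2 annotated genes between them, a pseudogene and the long noncoding RNA Ptgs2os.

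Ptges, the inducible prostaglandin E synthase, had 3 probe sets that lay between 1.95 and 2.22 on all 6 arrays. Hpgds, the prostaglandin D synthase of haematopoietic cells, which tuft cells are known to express too, read 3.03, 2.38 and 2.38 on KO 1, KO 2 and KO 3, against 2.41, 2.41 and 2.39 on WT 1, WT 2 and WT 3. KO 1 was the only array above 2.5 for it. None of these probe sets was tested, and values at the floor do not show whether a gene was silent.

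**Figure D2:**
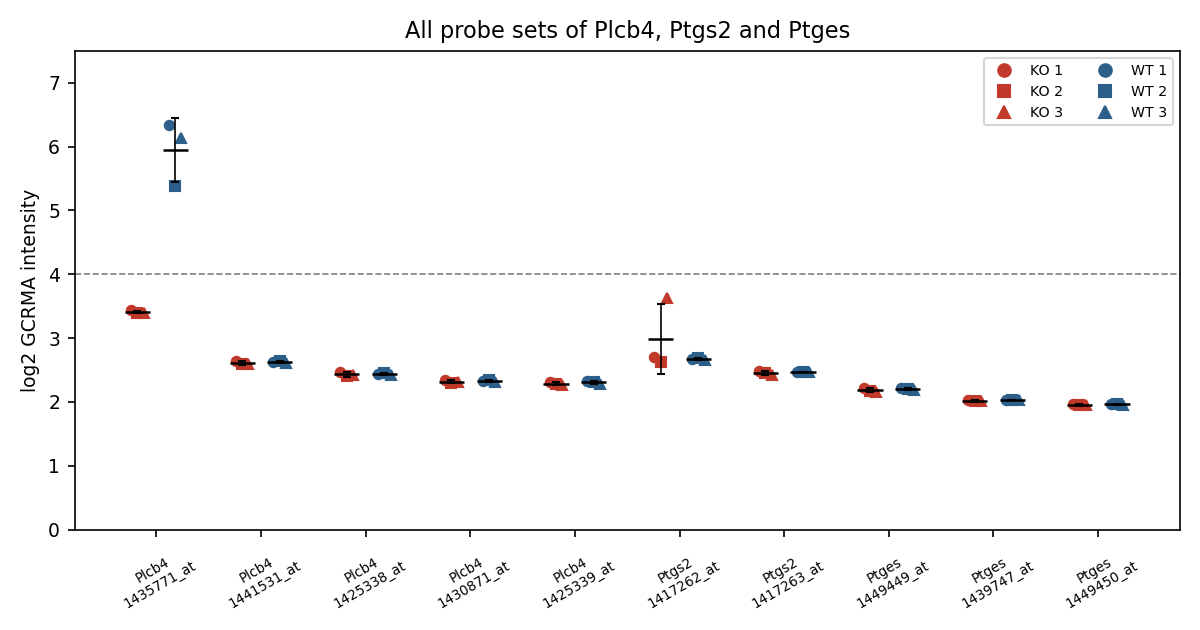
Log2 GCRMA intensity by array of the 10 probe sets of Plcb4, Ptgs2 and Ptges; KO arrays are red and WT arrays blue, bars are group means with SD (n = 3), and the dashed line is the filter at 4. A single Plcb4 probe set lies above the filter, and only on the WT arrays, while KO 3 stands alone on one Ptgs2 probe set.

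The leukotriene members were measured above the floor and did not pass. Alox5ap, the activating protein that presents arachidonic acid to 5-lipoxygenase, read 9.10, 7.93 and 7.39 on KO 1, KO 2 and KO 3, against 8.40, 7.65 and 7.81 on WT 1, WT 2 and WT 3. KO 1 was the highest of the 6 arrays and KO 3 the lowest, so the mutants enclosed the wild type mice. The means were 8.14 ± 0.87 in KO crypts and 7.95 ± 0.40 in WT crypts (SD, n = 3 each), and the difference of 0.19 ± 0.46 (SE) did not pass (limma adjusted p = 0.999). It was -0.29 without KO 1 and 0.56 without KO 3.

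Ltc4s encodes leukotriene C4 synthase, which joins glutathione to leukotriene A4. It read 5.90, 5.28 and 5.87 on KO 1, KO 2 and KO 3, against 5.10, 5.29 and 5.06 on WT 1, WT 2 and WT 3. KO 1 and KO 3 stood above all wild type mice, whereas KO 2 lay 0.01 under WT 2. The means were 5.68 ± 0.34 in KO crypts and 5.15 ± 0.12 in WT crypts (SD, n = 3 each). The difference of 0.53 ± 0.22 (SE) did not pass (limma adjusted p = 0.999).

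Of the 4 tested genes that were not chosen for their difference, 0 passed in either direction, where 0.011% of all probe sets passed, and all 4 had overlapping groups. Their differences ran from 0.06 to 0.53 with a median of 0.21, beside a median of 0.03 over all probe sets tested.

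Tuft cell markers, when summed, stood in the same order over the 6 arrays as Alox5ap. Their summed linear level, over 11 genes, was 722, 420 and 340 on KO 1, KO 2 and KO 3, against 567, 359 and 367 on WT 1, WT 2 and WT 3. KO 1 and WT 1 held the highest sums, and they were also the 2 arrays highest in Alox5ap. This order was picked out after the values had been seen, among the 4 genes above and the tuft and leukocyte markers, so it is a description without a test. By the median deviation of the 4 tested tuft markers the order differed, with WT 1 (0.29) above KO 1 (0.25).

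The tuft sum was carried by few genes. Avil, which encodes the actin-binding protein advillin, read 7.98, 7.48 and 7.03 on KO 1, KO 2 and KO 3, against 8.13, 7.29 and 7.35 on WT 1, WT 2 and WT 3. Gng13, a G protein gamma subunit of taste signalling, read 6.36 to 8.37 in KO and 4.31 to 4.78 in WT (difference 2.55, limma adjusted p = 0.670). The tuft kinase gene Dclk1 went the other way, at 4.79 to 4.82 in KO and 6.24 to 6.94 in WT (difference -1.68, limma adjusted p = 0.231). The list as a whole ran from 340 to 722 in KO and from 359 to 567 in WT. Of its 11 measured genes 7 were under the filter and not tested, among them Pou2f3, Il25 and Chat near the floor. Sh2d6, also under the filter, read 2.11 to 2.50 in KO and 3.07 to 5.13 in WT, lower in KO like Dclk1 (difference -1.49). Pou2f3 was higher on all KO arrays than on all WT arrays, by 0.16, and the others under the filter had overlapping groups.

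Leukocytes are another known source of Alox5ap, Plcg2 and Hpgds. The median deviation of 12 tested leukocyte markers was 0.63, 0.16 and 0.22 on KO 1, KO 2 and KO 3, against -1.56, 0.31 and 0.29 on WT 1, WT 2 and WT 3. By this measure WT 1 was the lowest array, and Ptprc read 5.73 on it against 8.50 or more on the other 5. The summed linear level of 18 leukocyte markers did not put WT 1 lowest: it was 26407, 11889 and 11739 on KO 1, KO 2 and KO 3, against 17116, 19039 and 25137 on WT 1, WT 2 and WT 3. This sum was carried mostly by Lyz2 and Jchain. Lyz2, the only tested marker lower in KO, read 12.88 to 13.18 in KO and 13.99 to 14.42 in WT, with 14.02 on WT 1. Jchain read 6.33 on WT 1 and 10.25 to 14.00 on the other arrays. Of the 12 tested markers 11 were higher in KO, with a median difference of 0.94 that was 0.37 without WT 1, and 0 passed the test. Their part in the values of Plcg2, Alox5ap and Hpgds was not tested. In the mast cell list 3 of 11 genes were above the filter, and the defining genes Cpa3, Tpsb2 and Fcer1a stayed under 2.6 on all arrays. Its summed level was 456 to 574 in KO and 663 to 1018 in WT, groups that do not overlap. Kit, Mcpt1 and Mcpt2 carried this sum, with differences of -0.08, -1.16 and -0.66, and of these only Mcpt1 had groups that do not overlap.

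**Figure D3:**
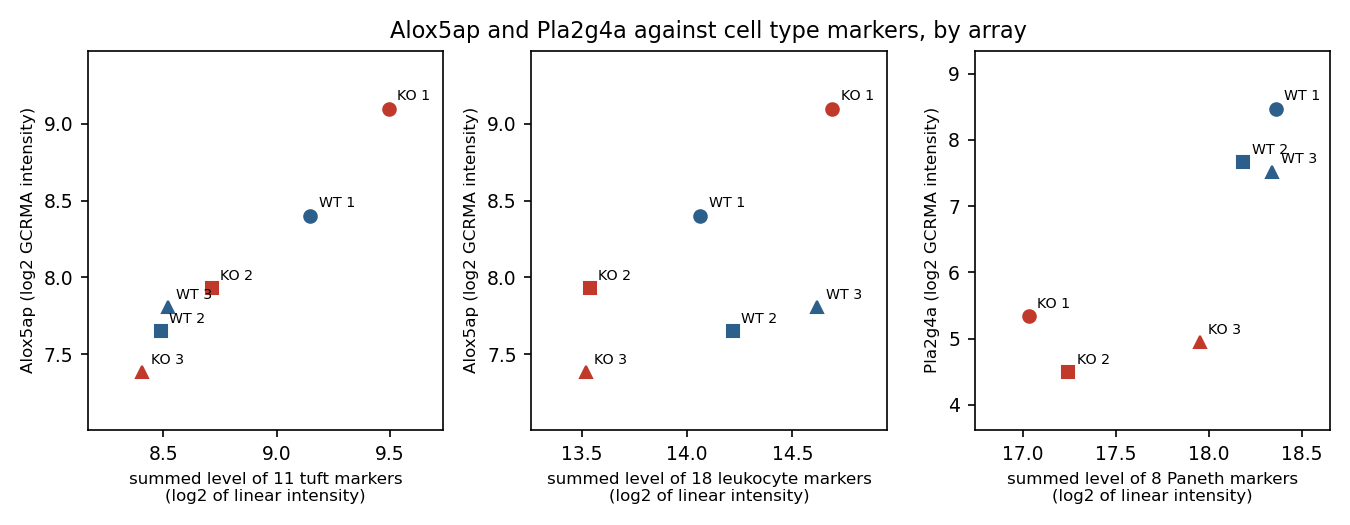
Log2 GCRMA intensity of Alox5ap (left and middle) and Pla2g4a (right) on each array against the log2 of the summed linear level of tuft, leukocyte and Paneth cell markers; KO arrays are red and WT arrays blue. Alox5ap and the tuft sum put the 6 arrays in one order, which was picked out after the values had been seen. In the right panel the groups are apart on both axes, but Pla2g4a was chosen for its difference between these same groups. The panels are a description without a test.

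Most Paneth cell markers read lower in KO, without passing the test. Their summed linear level was 134031, 155299 and 253301 on KO 1, KO 2 and KO 3, against 335839, 297776 and 331744 on WT 1, WT 2 and WT 3. Of 8 measured markers 7 were lower in KO, 4 of them with groups that do not overlap, beside 9.12% of all probe sets tested. Mmp7 differed by -4.71, at 6.82 to 8.60 in KO and 12.30 to 13.28 in WT (limma adjusted p = 0.156). Defa39 differed by -2.25 (limma adjusted p = 0.443) and Ang4 by 0.06. The median difference was -0.96, and 0 passed the test over all probe sets. The order of the mutants in the Paneth sum depended much on Defa31. It read 2.95, 14.69 and 16.51 on KO 1, KO 2 and KO 3, against 15.88 to 16.20 in WT. The part of the Paneth markers, of the lower Dclk1 and of the lower mast cell sum above in the low Pla2g4a and Plcb4 signal was not tested. In RNA of a whole crypt preparation, fewer cells of a type and less RNA per cell cannot be told apart.

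The wider pathway gives the background for the set. Lists of 136 other genes in 10 groups were compared, of which 127 were on the array and 73 were tested with their brightest probe set. Of these, 0 passed in either direction at an adjusted p of 0.05 (limma, 0.011% of all probe sets tested), and 4 had an unadjusted p under 0.05 (5.48%, beside 3.62% of all probe sets). There were 37 lower and 36 higher in KO, with a median of -0.0020. The groups did not overlap for 13 genes (17.8%, beside 9.12% of all probe sets), 7 lower and 6 higher in KO. Over all 9679 genes tested, each with its brightest probe set, 386 were lower and 536 higher in KO without overlap. Of those 9679 genes, 190 lower and 190 higher in KO had an unadjusted limma p under 0.05. For 71 of the 73 pathway genes both group means reached 4, and of these 3 had an unadjusted p under 0.05 and 12 had groups that do not overlap (16.9%). The difference was smaller than 0.5 in size for 59 of the 73. Below, a range in brackets after a difference is its lowest and highest value with each array left out in turn, given where one of them is over 1.5 times larger or smaller or turns the sign.

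**Figure D4:**
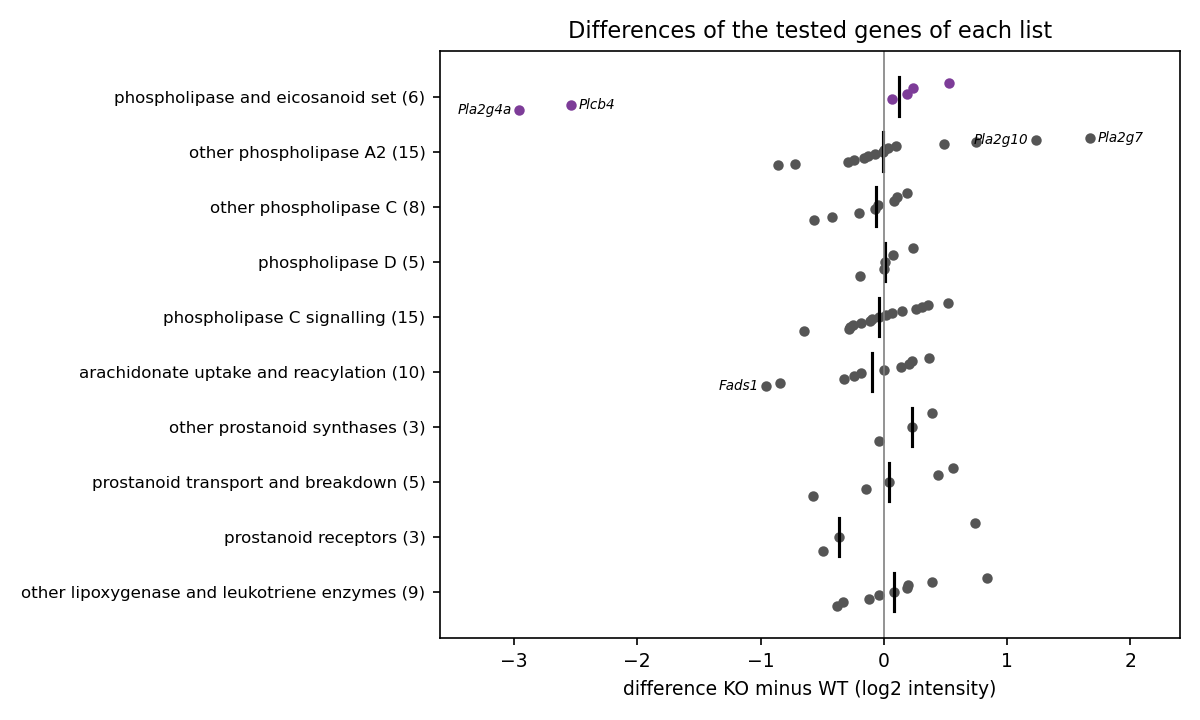
Difference KO minus WT in log2 intensity of the tested genes of the phospholipase and eicosanoid set (purple) and of 9 pathway lists with tested genes (grey), with the number of tested genes in brackets; vertical bars are list medians and genes beyond 0.9 in size are named. Pla2g4a and Plcb4, which were chosen for their low differences, lie below -2.5. The lowest tested gene of the lists is Fads1 at -0.95.

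Other phospholipases A2 went both ways, 8 lower and 7 higher in KO of 15 tested, with a median of -0.01 and 0 past the test. Pla2g10, a secreted phospholipase A2, read 8.89, 7.25 and 8.03 on KO 1, KO 2 and KO 3, against 6.57, 6.995 and 6.91 on WT 1, WT 2 and WT 3. All mutants lay above all wild type mice, in the opposite direction to Pla2g4a, but the difference of 1.23 ± 0.41 (SE) did not pass (limma adjusted p = 0.999), and it was 0.81 without KO 1.

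Pla2g2a, the secreted phospholipase A2 of Paneth cells, is known to carry a natural frameshift in C57BL/6 mice, and it counts among the Paneth markers above. It read 8.87, 8.25 and 9.33 on KO 1, KO 2 and KO 3, against 9.82, 9.48 and 9.32 on WT 1, WT 2 and WT 3. KO 3 lay level with WT 3, and the difference was -0.72 ± 0.31 (SE; limma adjusted p = 0.999) and -0.44 without KO 2. Pafah1b3, a catalytic subunit of an acetylhydrolase of platelet-activating factor, differed by 0.48 (0.295 to 0.65).

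In the other phospholipases C, 5 were lower and 3 higher in KO of 8 tested, with 0 past the test and a median of -0.06. Plcb1, a further beta-class paralog of Plcb4, read 3.74, 4.29 and 4.40 on KO 1, KO 2 and KO 3, against 4.45, 4.41 and 5.26 on WT 1, WT 2 and WT 3. Here KO 3 and WT 2 were 0.02 apart, and the difference of -0.56 ± 0.31 (SE) did not pass (limma adjusted p = 0.999) and was -0.29 without WT 3. Plcb2, the beta-class enzyme of taste and tuft cells, lay between 2.77 and 2.82 on all arrays, at the floor. Plcg1, the widely expressed gamma-class enzyme, differed by 0.08 (0.036 to 0.10) and Plch1 by -0.20 (-0.36 to -0.073). Plcd1 differed by -0.42 on its brightest probe set, but by -0.045 with overlapping groups on its other tested one.

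Downstream of phospholipase C, 8 of 15 tested signalling genes were lower and 7 higher in KO, with 0 past the test and a median of -0.04. The inositol trisphosphate receptor gene Itpr3 differed by 0.36 (0.20 to 0.59) and Prkcz, an atypical protein kinase C, by 0.52, and for Prkcz all mutants lay above all wild type mice on the brightest probe set. Rgs2, which dampens Gq signalling, differed by -0.65 (-0.83 to -0.29), with KO 1 (9.54) and KO 3 (9.52) near WT 1 (9.53). Of the phospholipases D, 2 were lower and 3 higher in KO of 5 tested, and 0 passed. Pld3 differed by 0.24 and Pld2 by 0.07 (-0.045 without WT 2 to 0.16). Pld1 differed by -0.19 (-0.35 to -0.016) on its brightest probe set, and by 0.33 and -0.15 on the others tested.

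Among genes that supply and store arachidonic acid, 5 were lower and 5 higher in KO of 10 tested, and 0 passed. Fads1, the delta-5 desaturase that makes arachidonic acid, read 8.51, 8.33 and 7.35 on KO 1, KO 2 and KO 3, against 9.37, 8.54 and 9.14 on WT 1, WT 2 and WT 3. KO 1 and WT 2 were 0.03 apart, and the difference was -0.95 ± 0.37 (SE; limma adjusted p = 0.999) and -0.60 without KO 3. Lpcat3, which puts arachidonic acid into phospholipids, differed by 0.37 (0.24 to 0.48). Lpcat1 differed by -0.84 (-1.48 to -0.24) on its brightest probe set and by -0.17 on its other tested one.

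Past the synthases, 3 receptor genes of the prostanoid list were tested of 11 on the array. Ptger4, the prostaglandin E2 receptor EP4, read 9.06, 8.78 and 9.39 on KO 1, KO 2 and KO 3, against 9.47, 9.68 and 9.57 on WT 1, WT 2 and WT 3. All mutants lay below all wild type mice, and the difference of -0.50 ± 0.21 (SE) did not pass (limma adjusted p = 0.999). A dimmer Ptger4 probe set differed by -0.49, with groups that overlap. Ptgfrn, a regulator of the prostaglandin F receptor, differed by -0.37 (-0.49 to -0.14) and the nuclear receptor gene Pparg by 0.74 (0.065 without KO 1 to 1.11). The 6 leukotriene receptor genes on the array were all under the filter.

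Prostaglandin transport and breakdown genes were 2 lower and 3 higher in KO of 5 tested, and 0 passed. Hpgd, the dehydrogenase that inactivates prostaglandins, averaged 11.54 ± 0.39 in KO crypts and 11.50 ± 0.23 in WT crypts (SD, n = 3 each), a difference of 0.04 (-0.095 without KO 1 to 0.26). Abcc4, an exporter of prostaglandins, read 3.87, 3.88 and 3.79 on KO 1, KO 2 and KO 3, against 4.57, 4.25 and 4.44 on WT 1, WT 2 and WT 3. Its mutant values lay under 4, so that it passed the filter only through the WT arrays, and its difference of -0.57 is given without a test. The prostaglandin importer gene Slco2a1 differed by 0.56 (0.14 to 1.18) on its brightest probe set and by 0.010 on its other tested one, and the prostaglandin reductase gene Ptgr1 differed by 0.44 (0.28 to 0.64). Of the remaining prostanoid synthase genes, Prxl2b differed by 0.39 (0.10 to 0.65), Cbr1 by 0.23 (0.11 to 0.44) and Ptges2 by -0.04 (-0.21 to 0.12 without WT 1).

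Of 9 tested lipoxygenase and leukotriene enzymes, 4 were lower and 5 higher in KO, and 0 passed. Alox5, the 5-lipoxygenase that Alox5ap serves, read 6.31, 6.60 and 5.85 on KO 1, KO 2 and KO 3, against 7.03, 6.25 and 6.49 on WT 1, WT 2 and WT 3. The groups overlapped, and the difference was -0.33 ± 0.29 (SE; limma adjusted p = 0.999), and -0.11 without WT 1 and -0.51 without KO 2. KO 3 was the lowest array for both Alox5 and Alox5ap. Ephx2, the soluble epoxide hydrolase, was higher in all mutants than in all wild type mice, by 0.84 ± 0.33 (SE; limma adjusted p = 0.999) and by 0.51 without WT 1. Mgst1, a microsomal glutathione transferase of the protein family of Ltc4s, was lower in all mutants, with a difference of -0.38, and Dpep1, which trims leukotriene D4, differed by 0.39 (0.17 to 0.76). None of these passed.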

How the data were processed

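Per the labels' protocols, RNA of jejunal crypts was extracted with TRIzol, treated with DNase and labelled with biotin for a single-colour array. The deposited log2 values were made with GCRMA, and limma was used too, per the submitters' processing notes. The sources used here give no versions, settings or genome build. All 6 columns of the table are samples of the series.

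From 45101 probe sets 64 array controls were left out. Of the other 45037, 34945 carry 1 symbol in the platform annotation, 932 several and 9160 none. Genes are named only from probe sets with 1 symbol, and 34741 of these matched a RefSeq gene of GRCm38.p6 by gene ID, with 0 symbols changed. The 18108 probe sets whose mean reached 4 were tested with lmFit and eBayes of limma 3.58.1 under R 4.3.3 (2 groups, two-sided, 4 residual and 2.59 prior degrees of freedom) with Benjamini-Hochberg adjustment. The fit was tested on simulated data. With 3 mice a group, an exact two-sided permutation test cannot go below p = 0.1. The number of arrays limits the precision. Each p-value sets a group difference against the spread within the groups of these 6 mice, moderated by the spread over all probe sets tested.

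Lists used the brightest tested probe set of each gene, and marker lists the brightest probe set whether tested or not, with linear values summed for each array. A median deviation is the median, over the tested markers, of each array's distance from the mean of the gene. In every pathway list up to 3 genes of smallest unadjusted p were named, and in any case Pla2g2a, Alox5, Hpgd, Ptger4, Plcb1, Plcb2 and Plcg1. The members and lists were chosen with earlier results of these data known. The 14 alternatives changed the model (a replicate block, array weights, a trended robust prior), the filter (none, or at 6), the scaling (quantile, or median centring) or the input (1 probe set per gene, or an array left out).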

Additional observations from a re-analysis of the deposited data

How the results depend on the processing

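In the 14 alternatives 0 probe sets of the measured genes of the set other than Pla2g4a and Plcb4 and 0 of the pathway lists passed. Pla2g4a lay between -3.22 and -2.66 and Plcb4 between -2.82 and -2.34. Of 499 values for 36 named probe sets, 488 kept their sign and, where tested, their side of the threshold, and 11 turned sign without passing. With an array left out, Alox5ap ran from -0.29 (without KO 1) to 0.56, Plcb3 from -0.059 (without KO 3) to 0.25, Pld2 from -0.045 (without WT 2) to 0.16, Hpgd from -0.095 (without KO 1; also turned without KO 3 or WT 1) to 0.26 and Ptges2 from -0.21 to 0.12 (without WT 1; also turned without KO 3). Array weights turned Alox5ap (-0.22) and Hpgd (-0.082), and quantile normalization turned Hpgd (-0.0016). At a filter of 6, Plcb4, Ltc4s, Plcb1, Lpcat1 and Abcc4 were not tested. The count over all probe sets, 2, was 0 with a replicate block, 0 with no filter, 1 with the filter at 6, 4 with quantile normalization, 11 with array weights, and 0 (without WT 1 or WT 2) to 16 (without WT 3) with an array left out. Whether equal numbers pair the mice is not known, since the sources used here give no litter of the single mice. Same-numbered arrays had deviations from their group means that correlated at -0.05, -0.29 and 0.03. With 3 arrays a group and the group means taken out, these correlations cannot decide it. Apart from fewer samples or other probe sets tested, the cause of these changes was not tested. Signal near the floor limits Plcb4 in KO and all of Ptgs2, Ptges and Hpgds.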

Other observations

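Of the genes of the pathway lists that fell outside the naming rule, the following were chosen after their values were seen. Mboat1, which encodes an acyltransferase of lysophospholipids, lay under the filter and was not tested. It read 2.46, 2.47 and 2.46 on KO 1, KO 2 and KO 3, against 5.04, 4.97 and 2.51 on WT 1, WT 2 and WT 3, so that WT 3 lay with the mutants at the floor. Pla2g1b, the phospholipase A2 of pancreatic juice, reached 5.79 on KO 2 but only 2.29 to 2.34 elsewhere.

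Pla2g7, the plasma type acetylhydrolase of platelet-activating factor, which macrophages make, read 6.97, 5.42 and 6.99 on KO 1, KO 2 and KO 3, against 2.71, 5.41 and 6.23 on WT 1, WT 2 and WT 3 (difference 1.67, limma adjusted p = 0.999). WT 1, the lowest array for it, was also the lowest for the macrophage receptor gene Csf1r, at 2.87 against 7.12 or more elsewhere. Pla2g4c, a cytosolic phospholipase A2 like Pla2g4a, reached 10.10 on WT 1 but only 4.01 to 7.81 elsewhere, with a difference of 0.00 between the groups.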
